A study of Rattus norvegicus with 3 samples.

Results

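The annotation behind these rat kidney RNA-seq tables marked 1750 of its 33194 records as pseudogene or retrotransposed, and their levels were compared across strains. They were every record whose deposited biotype was pseudogene (1417 records) or retrotransposed (333 records), with no use of the measured values. The records were then divided by whether the deposited locus, a stretch of chromosome, belonged to 1 record only or was listed for several. By that rule 1369 records were alone at their locus and 381 shared it, at 357 different loci.

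Kidney RNA came from a Dahl salt-sensitive rat library (Dahl S, 53 days old), a spontaneously hypertensive rat library (SHR, 55 days) and a Dahl salt-resistant rat library (Dahl R, 54 days). All 3 strains were weaned at 30 days and fed 0.3% salt from then, so that no group had a high-salt challenge. Total RNA was depleted of ribosomal RNA and sequenced, with 1 library per strain. No source used here says whether a library pooled several animals, so strain cannot be told apart from animal, age or library, and no test between strains was possible.

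A pseudogene is a stretch of genome that resembles a gene but has been marked by annotators as unlikely to make its protein. A retrotransposed or processed copy arises when a messenger RNA is copied back into DNA and inserted elsewhere, so that it lacks the introns of the gene it came from. Genes with abundant messages in the germ line, such as those of ribosomes, glycolysis and the cytoskeleton, are the usual sources, and a young copy can be nearly identical to its source gene. A short read that matches both copy and source cannot be assigned to either with certainty, so each level given here is that of a record as the authors' software counted it. The biotype is itself a label of one annotation release: a working gene without introns can carry it until it is revised.

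The current RefSeq annotation of the rat (GRCr8) showed how far the biotype could be relied on. Of the 1750 records, 166 could be matched to a RefSeq gene by accession, symbol or synonym, and the other 1584 could not. Of those matched, 118 were protein-coding in RefSeq and lay among the same neighbouring genes as in the tables, which makes 103 records with the biotype pseudogene and 15 with the biotype retrotransposed. A further 29 carried the name of a protein-coding gene whose RefSeq position was elsewhere, and 17 were pseudogenes in RefSeq as well. The pseudogene label therefore covers at least some records whose RefSeq counterpart in place is a protein-coding gene.

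The start regions of such genes are shown for 4 of them, since among the pseudogene records the number of CG pairs there differed between those that averaged 1 FPKM or more and those below it. Each is the 300 bases from 250 before to 50 after the RefSeq start (GRCr8), 5′ to 3′ on the gene's strand, with each CG pair in capitals. Kctd12, an auxiliary subunit of the GABA-B receptor, is on chr15:86220676-86220975 (minus strand), and Mpeg1, a pore-forming protein of macrophages, on chr1:218876644-218876943 (plus strand). Ftl1l1, a retrotransposed record of the ferritin light chain family, is on chrX:136687584-136687883 (minus strand), and Or52u1, an odorant receptor, on chr1:168275608-168275907 (plus strand).
Kctd12: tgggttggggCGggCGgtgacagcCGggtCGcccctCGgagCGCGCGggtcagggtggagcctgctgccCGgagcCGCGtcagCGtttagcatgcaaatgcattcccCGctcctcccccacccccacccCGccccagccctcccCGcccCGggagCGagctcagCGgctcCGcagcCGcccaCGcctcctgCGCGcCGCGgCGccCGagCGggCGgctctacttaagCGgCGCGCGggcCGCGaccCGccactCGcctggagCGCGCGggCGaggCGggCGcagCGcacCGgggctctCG
Mpeg1: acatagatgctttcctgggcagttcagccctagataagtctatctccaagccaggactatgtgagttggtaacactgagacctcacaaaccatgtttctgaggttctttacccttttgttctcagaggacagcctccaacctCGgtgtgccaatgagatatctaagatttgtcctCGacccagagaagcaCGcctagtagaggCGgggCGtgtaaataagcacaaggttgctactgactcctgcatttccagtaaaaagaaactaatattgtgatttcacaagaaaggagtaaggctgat
Ftl1l1: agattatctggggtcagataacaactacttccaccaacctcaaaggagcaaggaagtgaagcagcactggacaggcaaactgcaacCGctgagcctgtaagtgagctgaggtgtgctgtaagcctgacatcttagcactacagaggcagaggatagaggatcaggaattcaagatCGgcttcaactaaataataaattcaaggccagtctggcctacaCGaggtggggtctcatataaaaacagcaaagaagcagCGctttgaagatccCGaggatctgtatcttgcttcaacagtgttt
Or52u1: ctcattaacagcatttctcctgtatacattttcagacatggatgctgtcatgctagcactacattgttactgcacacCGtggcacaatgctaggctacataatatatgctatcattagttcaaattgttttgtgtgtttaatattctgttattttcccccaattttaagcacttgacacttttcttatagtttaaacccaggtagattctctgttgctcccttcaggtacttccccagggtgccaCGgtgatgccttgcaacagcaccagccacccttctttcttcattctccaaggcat

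The 300 bases held 46 CG pairs for Kctd12, 5 each for Mpeg1 and Ftl1l1, and 2 for Or52u1. Levels are given in FPKM (fragments scaled to the length of the transcript and to the number mapped in the library). Kctd12 had 14.0 FPKM in Dahl S, 10.04 FPKM in SHR and 12.1 FPKM in Dahl R, and Mpeg1 had a mean of 9.97 FPKM over the 3 libraries. Or52u1, listed in the tables as Olr155, had a mean of 0.471 FPKM. Promoters were found for 87 of the pseudogene records with a RefSeq protein-coding gene in place. The 28 of these that averaged 1 FPKM or more had a median of 14 CG pairs, and the 59 below that level had a median of 2, beside 11 over the 21851 protein-coding promoters and 7 over all 33469 rat promoters in the table. Among retrotransposed records the order was the other way round, with a median of 5.5 CG pairs for the 8 that averaged 1 FPKM or more and 14 for the 2 below it. The motif TATAAA, searched on both strands (so also as TTTATA) and with no bases in common with CG, was present in 3 of the 28 (10.7%) and in 17 of the 59 (28.8%), against 13.0% of protein-coding and 14.2% of all promoters. It was also present in the Ftl1l1 stretch. These are counts of letters and do not show which factors bind. None of the 44 records named for olfactory, vomeronasal or trace amine receptors averaged 1 FPKM or more. All 44 were pseudogene records with a RefSeq protein-coding gene in place, and they made up most of such records below 1 FPKM. Any of them among the 87 were therefore among the 59, and how many was not counted. Whether the CG and TATAAA differences hold without that family was not tested.

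A record counted as measured where its 3 values averaged 1 FPKM or more, and 848 of the 1750 did. The highest record below it had a mean of 0.996 FPKM, and the lowest of the measured records a mean of 1.00 FPKM. The 2 biotypes differed widely. Of the retrotransposed records 67.6% were measured, with a median of 4.05 FPKM over all of them. Of the pseudogene records 44.0% were measured, with a median of 0.618 FPKM. Protein-coding records lay between in the share measured, at 61.8% with a median of 3.17 FPKM, so retrotransposed records were listed at levels like those of ordinary genes. Sharing a locus made little difference: 49.6% of sharing and 48.1% of alone records were measured. In the library of Dahl S 1438 records were above 0, in that of SHR 1459 and in that of Dahl R 1420, and 148 were at 0 in all 3.

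**Figure D1:**
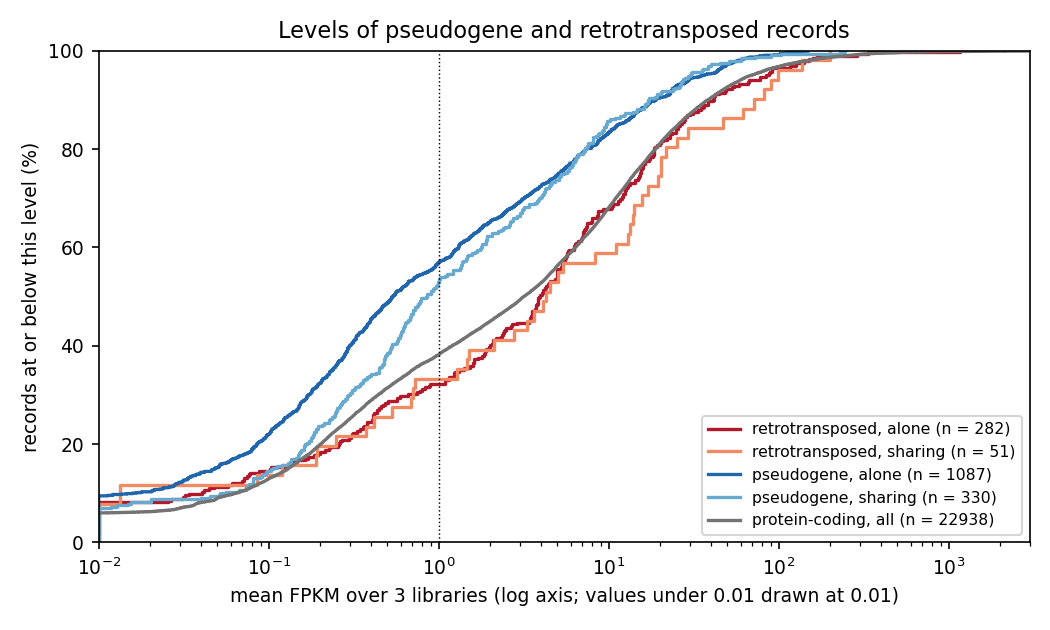
Cumulative share of records (vertical axis, percent) at or below each mean level (horizontal axis, FPKM over 3 libraries, log axis), by biotype and by whether the locus was shared. The retrotransposed lines follow the protein-coding line, and both pseudogene lines lie above and to the left of it, with the dotted line marking 1 FPKM.

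All 1750 records together held 1.99% of the summed FPKM in Dahl S, 1.79% in SHR and 1.91% in Dahl R. Within that small share the levels were concentrated, since 10 records held 19% of it and the highest record alone held 7.2%. That record, ENSRNOG00000033100, is a retrotransposed record without a gene name at chr3:138281078-138281788. Its level was 1255 FPKM in Dahl S, 1026 FPKM in SHR and 1231 FPKM in Dahl R, and its deposited limits overlapped in every pair. Positions are those of the tables, whose genome build no source used here gives.

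Both biotypes spread over 21 chromosomes, with none on Y. The X chromosome held 7.81% of retrotransposed and 6.35% of pseudogene records, against 4.32% of protein-coding ones. The length of the locus told them apart more sharply. Among records alone at their locus, 265 of 282 retrotransposed loci (94.0%) had a length that was a multiple of 3, against 22.2% of pseudogene and 42.5% of protein-coding loci. A length that is a whole number of codons is what an annotated reading frame without introns or untranslated ends would have. The 17 retrotransposed loci of other lengths were also the higher ones, with a median of 26.2 FPKM against 3.70 FPKM for the 265. The median length of the alone loci was 459 bases for retrotransposed and 594 bases for pseudogene records, and 115 alone loci were under 300 bases, which is near the size of the sequenced fragments.

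Among retrotransposed records alone at their locus, the 10 highest had means between 116 and 1171 FPKM, and no pair of libraries differed by 2-fold for any of them. Of those with a RefSeq match, Slc25a6, a carrier that exchanges ADP and ATP across the inner mitochondrial membrane, had 121.8 FPKM in Dahl S, 123.9 FPKM in SHR and 133.8 FPKM in Dahl R. RefSeq lists the record RGD1560994 as Eif1-ps8, a pseudogene of a translation initiation factor. It had 136.3 FPKM in Dahl S, 123.7 FPKM in SHR and 121.3 FPKM in Dahl R. In both, the 3 libraries were level within their limits. Below them, RGD1561179, which RefSeq lists as Pkm-ps20, a copy of the glycolytic pyruvate kinase, had 72.1 FPKM in Dahl S, 87.2 FPKM in SHR and 74.5 FPKM in Dahl R. Dstnl1, named for the actin-severing protein destrin, averaged 41.0 FPKM, and Arpc5l2, listed as a pseudogene of an actin-branching subunit, averaged 38.6 FPKM.

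Pseudogene records alone at their locus reached lower levels, the 10 highest lying between 94.3 and 149 FPKM on average. The record named Eif6, after a factor that keeps ribosomal subunits apart, had 140.7 FPKM in Dahl S, 135.1 FPKM in SHR and 128.4 FPKM in Dahl R. The record named Lonp1, after a protease of the mitochondrial matrix, had 108.1 FPKM in Dahl S, 118.8 FPKM in SHR and 102.3 FPKM in Dahl R. For neither did RefSeq place the gene of that name in this neighbourhood. The widest ratio among the 10 was at ENSRNOG00000028513, without a name. It had 85.9 FPKM in Dahl S, 81.3 FPKM in SHR and 135.9 FPKM in Dahl R, a log2 ratio of -0.65 for Dahl S over Dahl R and -0.73 for SHR over Dahl R, with overlapping limits in both.

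The 29 records named for a gene elsewhere included 24 that were measured, among them Ndufa10 (a subunit of respiratory complex I) with a mean of 61.1 FPKM, Pgam1 (a glycolytic mutase) with 44.6 FPKM and Rhoa (a small GTPase of the cytoskeleton) with 26.6 FPKM. Only 3 of the 29 had a record in the tables that matched the RefSeq gene by name or accession, and for 1 of these alone did the chromosomes match and the gene have a level above 0. That was Isca2, which helps assemble iron-sulphur clusters in mitochondria. Its retrotransposed copy Hbld1 on chromosome 14 had 17.1 FPKM in Dahl S, 17.5 FPKM in SHR and 17.3 FPKM in Dahl R. The gene itself, on chromosome 6, had 32.6 FPKM in Dahl S, 29.0 FPKM in SHR and 28.6 FPKM in Dahl R. The copy was thus listed at 52.5% of the gene's level in Dahl S, 60.4% in SHR and 60.7% in Dahl R, and how many reads the pair shared cannot be told from these tables.

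Of the 103 pseudogene records with a RefSeq protein-coding gene in place, 34 were measured. They included regulators of growth and transcription. Tob1, an antiproliferative protein, had 58.5 FPKM in Dahl S, 66.8 FPKM in SHR and 60.1 FPKM in Dahl R. Sox4, a transcription factor of progenitor cells, had 19.7 FPKM in Dahl S, 14.7 FPKM in SHR and 14.1 FPKM in Dahl R. Neither had limits apart in any pair. The record named Enpep, after the aminopeptidase of the proximal tubule brush border that trims angiotensin II, had 35.7 FPKM in Dahl S, 40.6 FPKM in SHR and 53.9 FPKM in Dahl R. Its log2 ratio for Dahl S over Dahl R was -0.58, and the limits of 24.4 to 46.9 FPKM in Dahl S overlapped those of 38.1 to 69.6 FPKM in Dahl R. The locus is 991 bases long, shorter than a gene of many exons such as Enpep.

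Over the 29 measured pseudogene records with a gene in place that were alone at their locus, log2 ratios ran from -0.58 to 0.74 for Dahl S over Dahl R, from -1.27 to 0.94 for Dahl S over SHR, and from -0.61 to 1.54 for SHR over Dahl R. The upper end of the Dahl S over SHR range was Mpeg1. It had 13.2 FPKM in Dahl S, 6.42 FPKM in SHR and 10.3 FPKM in Dahl R, and its limits were apart between Dahl S (8.96 to 17.4 FPKM) and SHR (4.31 to 8.54 FPKM). The summed level of 3 macrophage markers (Csf1r, Cd68 and Cd74) was 451 FPKM in Dahl S, 362 FPKM in SHR and 326 FPKM in Dahl R. Its part in the Mpeg1 levels was not tested, and in whole kidney more cells of a type and more RNA per cell cannot be told apart.

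Families were counted from the names. The 44 records named for olfactory, vomeronasal or trace amine receptors, which serve odour detection in the nose, included 0 that were measured. Their median was 0.0349 FPKM, their highest mean 0.471 FPKM, and 17 of them were at 0 in all 3 libraries. All 3 translation factor records were measured, as were both records of glycolysis, both of oxidative phosphorylation and all 3 of the cytoskeleton. Of the 4 ribosomal protein records 3 were measured, with a median of 2.01 FPKM over the 4. No member was named for the rat major histocompatibility complex (RT1). Since 1393 of the 1750 records have no gene name, these counts describe only the named ones.

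Kidney markers were present in all 3 libraries, with 10 of 10 at 1 FPKM or more in each, from Umod of the thick ascending limb to Aqp2 of the collecting duct. Their summed level was 6455 FPKM in Dahl S, 8291 FPKM in SHR and 7232 FPKM in Dahl R. Of 5 red blood cell markers 4 were found, with a sum of 12880 FPKM in Dahl S, 2968 FPKM in SHR and 5329 FPKM in Dahl R. The 5 adipocyte markers summed to 153 FPKM in Dahl S, 457 FPKM in SHR and 114 FPKM in Dahl R. The 4 lymphocyte markers summed to 9.20 FPKM in Dahl S, 3.56 FPKM in SHR and 12.6 FPKM in Dahl R, with 1 of them at 0 in a library. The part of these differences in the results on the strains was not tested.

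Between strains, few of the 848 measured records were far apart. A record was called when its log2 ratio, computed on FPKM plus 1, was at least 1 in size (2-fold), and the added 1 draws the ratios of low records towards 0. For Dahl S over Dahl R, 8 of the 659 measured records alone at their locus were called (1.21%), 3 of them higher and 5 lower in Dahl S. The balance turned with the settings: a pseudocount of 0.1 gave 19 higher and 11 lower, and no minimum level 11 higher and 9 lower. The background was 2.42% of all measured records alone at their locus (1.41% higher and 1.00% lower) and 4.04% of all measured records. For Dahl S over SHR, 10 were called (1.52%), 4 higher and 6 lower in Dahl S, beside backgrounds of 3.38% (1.89% higher and 1.49% lower) and 5.06%. With a pseudocount of 0.1 there were 20 higher and 12 lower. For SHR over Dahl R, 5 were called (0.759%), 4 higher and 1 lower in SHR, beside backgrounds of 2.96% (1.74% higher and 1.22% lower) and 4.40%. With a pseudocount of 0.1 there were 9 higher and 10 lower. In each pair the share was below its background at the reported setting. Backgrounds were not computed for other pseudocounts or minimum levels, so the counts given for those have none beside them.

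Records that shared their locus gave 10 calls among 189 (5.29%) for Dahl S over Dahl R, beside a background of 7.88% of all measured records sharing a locus. For Dahl S over SHR there were 6 calls (3.17%, background 9.01%), and for SHR over Dahl R 3 calls (1.59%, background 7.81%). Of protein-coding records sharing a locus 3.47%, 4.72% and 4.18% were called in the same order of pairs. The share was thus above that of protein-coding records for Dahl S over Dahl R and below it for the other pairs. The middle of the ratios lay near 0 throughout. The median log2 ratio over the 848 records was 0.06 for Dahl S over Dahl R, 0.02 for Dahl S over SHR and 0.03 for SHR over Dahl R, against 0.04, -0.00 and 0.04 over protein-coding records. The 3 pairs share libraries, so their counts are not separate pieces of evidence.

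**Figure D2:**
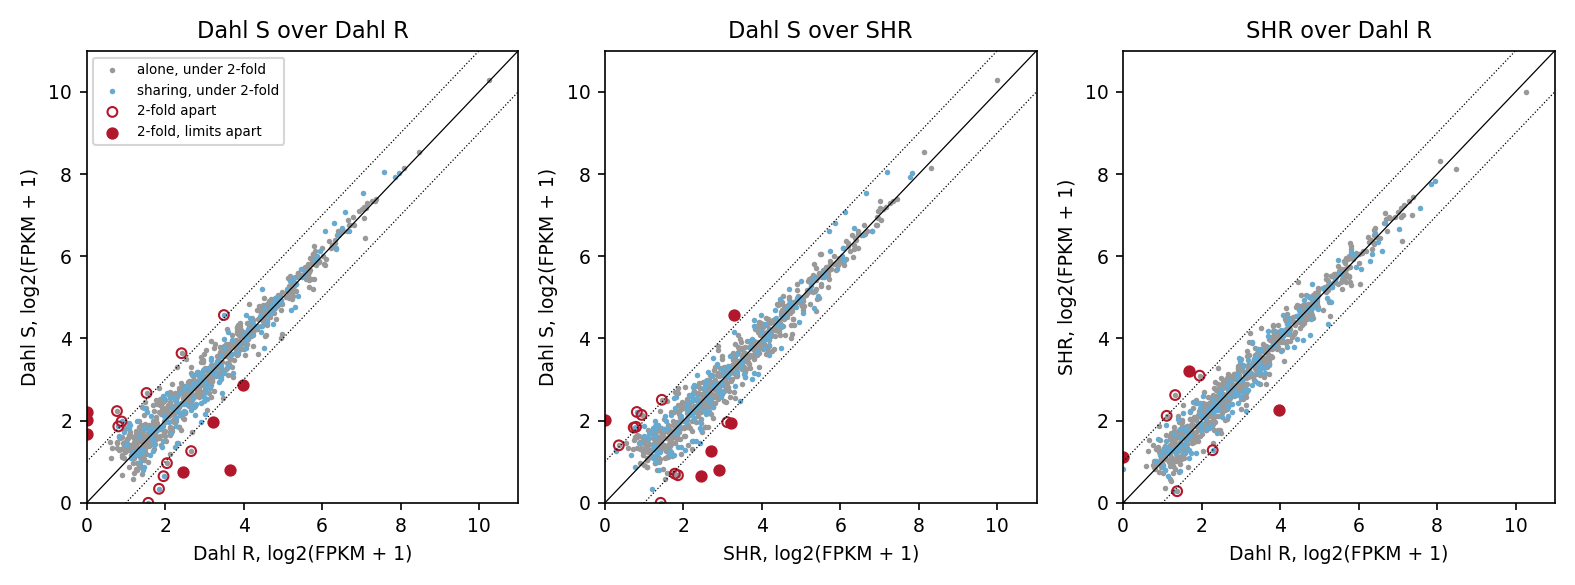
Level of each of the 848 measured records in 1 library against another (both axes log2 of FPKM plus 1), 1 panel per pair, grey for records alone at their locus and blue for those that shared it. Points past the dotted 2-fold lines are ringed in red, filled where the deposited limits were also apart, and lie at the low end of each panel.

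In all 31 records were called in at least 1 pair, 19 alone at their locus and 12 sharing it, which is 3.66% of the measured ones against 8.26% of all measured records. All 31 had means of 13.9 FPKM or less, and none of the 200 measured records at 20 FPKM or more was called. Of the 31 records 28 had no gene name. The level of a record bears on such counts, so they were also set beside protein-coding records of like level. At 5 to 20 FPKM, 3 of 242 alone records (1.24%) were called for Dahl S over Dahl R, against 1.04% of protein-coding records alone at their locus. For Dahl S over SHR the shares were 0.826% against 1.91%, and for SHR over Dahl R 0.00% against 1.86%. At 2 to 5 FPKM 2.68% of alone records were called in each pair. The protein-coding shares there were 2.40% for Dahl S over Dahl R, 3.11% for Dahl S over SHR and 3.87% for SHR over Dahl R. At 20 FPKM or more, 0 of 158 were called in any pair, against 0.952% of protein-coding records for Dahl S over Dahl R, 1.99% for Dahl S over SHR and 1.76% for SHR over Dahl R. At 1 to 2 FPKM, 7 of 34 sharing records (20.6%) were called for Dahl S over Dahl R, against 8.07% of protein-coding records sharing a locus. In the same range the shares of sharing records were 11.8% against 11.2% for Dahl S over SHR and 2.94% against 7.82% for SHR over Dahl R. Of the alone records at 1 to 2 FPKM 0.909% were called for Dahl S over Dahl R, against 3.32% of protein-coding records alone at their locus.

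**Figure D3:**
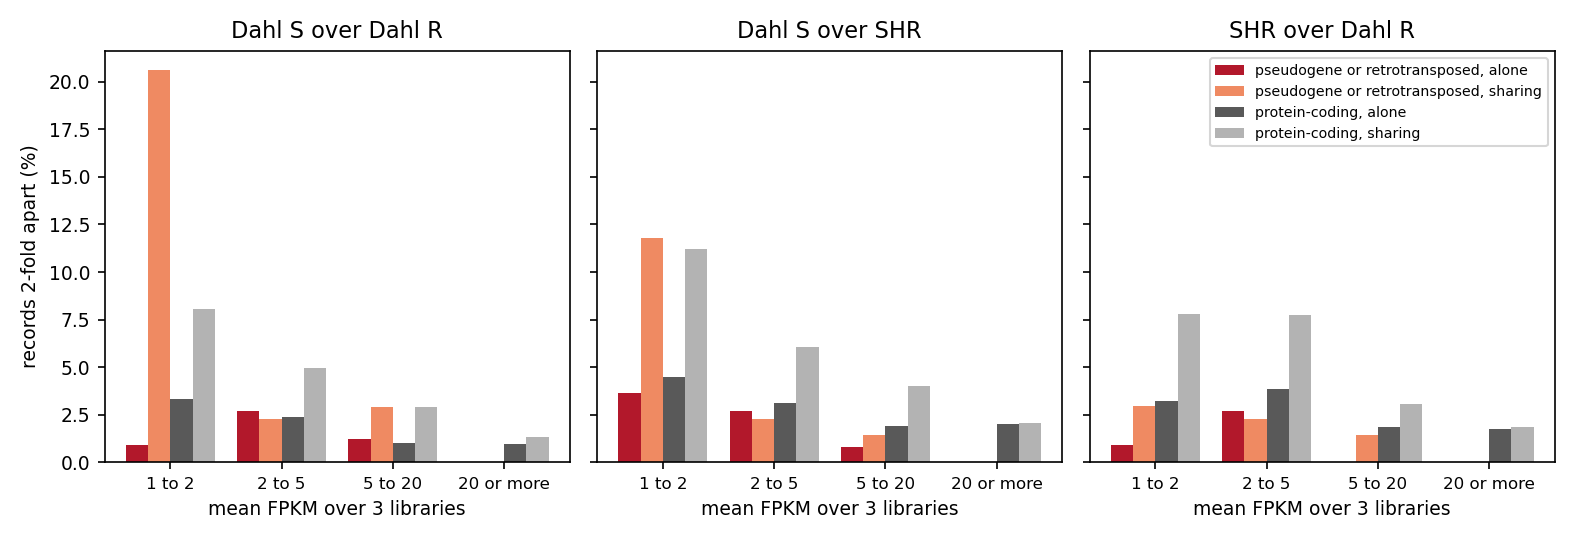
Percent of records 2-fold apart (vertical axis) by mean level (horizontal axis, FPKM over 3 libraries), 1 panel per pair of libraries. Red and orange bars are pseudogene and retrotransposed records alone at or sharing their locus, and dark and light grey bars protein-coding records of the same kinds. No red or orange bar stands at 20 FPKM or more.

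The deposited limits are the only measure of error here, and in 11 of the 31 records they were apart in a called pair. By pair, 7 records met both conditions for Dahl S over Dahl R, 6 for Dahl S over SHR and 3 for SHR over Dahl R, beside 1.69%, 2.60% and 2.59% of all measured records. All 3 records that met them as higher in Dahl S than in Dahl R were listed at 0 in Dahl R, with both limits also at 0. Limits of no width are apart wherever the other lower limit is above 0, such as 0.147 FPKM in SHR for ENSRNOG00000038109. With 1 added to each FPKM the largest log2 ratio was at ENSRNOG00000004329, a pseudogene record without a name, alone at chr7:67799696-67800008. It had 0.736 FPKM in Dahl S, 6.47 FPKM in SHR and 11.6 FPKM in Dahl R, a log2 ratio of -2.86 for Dahl S over Dahl R and -2.10 for Dahl S over SHR. The upper limit in Dahl S, 1.88 FPKM, lay below the lower limits of 3.19 FPKM in SHR and 6.21 FPKM in Dahl R, so Dahl S stood apart from both others. With 0.1 added in place of 1 its log2 ratio for Dahl S over Dahl R was -3.80, and those of ENSRNOG00000038029 (5.22), ENSRNOG00000028974 (4.96) and ENSRNOG00000038109 (4.53), each listed at 0 in Dahl R, were larger in size.

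Of the 4 other alone records 3 were also lowest in Dahl S. The retrotransposed ENSRNOG00000028080 on chromosome 2 had 0.690 FPKM in Dahl S, 2.29 FPKM in SHR and 4.50 FPKM in Dahl R. ENSRNOG00000026220 on chromosome 19 had 2.90 FPKM in Dahl S, 7.68 FPKM in SHR and 8.32 FPKM in Dahl R. ENSRNOG00000037628 on chromosome 20 had 1.39 FPKM in Dahl S, 5.50 FPKM in SHR and 5.33 FPKM in Dahl R. The first pair of these had limits apart from Dahl R (log2 ratios -1.70 and -1.26), and the last from SHR (-1.44).

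The record named Pou3f1, at chr5:143981584-143982989, was highest in SHR. Pou3f1 encodes a POU transcription factor (Oct6) known from Schwann cells and skin, and its RefSeq gene is protein-coding and lies in the same neighbourhood. Its level was 8.29 FPKM in SHR, against 2.84 FPKM in Dahl S and 2.20 FPKM in Dahl R. The limits of 5.39 to 11.2 FPKM in SHR were apart from both others, with a log2 ratio of 1.54 for SHR over Dahl R and -1.27 for Dahl S over SHR. It was the only one of the 5 alone records with a name.

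Records that shared their locus are harder to read, since the deposited locus does not give the extent of each record in it. Over the 381 records that shared a locus its median length was 67937 bases. Whether a record and its partner overlap is therefore not known. The retrotransposed ENSRNOG00000038375 at chr16:71035236-71036095 had 6.28 FPKM in Dahl S, 3.81 FPKM in SHR and 14.8 FPKM in Dahl R. The long non-coding record on the same strand at that locus had 43.9 FPKM in Dahl S, 45.4 FPKM in SHR and 33.2 FPKM in Dahl R, so the levels of the 2 records ran in opposite order in SHR and Dahl R. LOC100364491 (ENSRNOG00000028974), described as ribosomal protein L7a and sharing a locus of 233593 bases with 4 records, was listed at 0 in both SHR and Dahl R, against 3.02 FPKM in Dahl S. A long non-coding record at that locus had 3.01 FPKM in Dahl S and 0 in both others as well, and how many reads the 2 records had in common cannot be told from the tables. ENSRNOG00000038029 and ENSRNOG00000038109 shared their loci with the protein-coding records Gdpd2 and Fgfr3, listed on the opposite strand. Both pseudogene records were also listed at 0 in Dahl R, with 3.63 and 2.22 FPKM in Dahl S. ENSRNOG00000015363 had 0.567 FPKM in Dahl S, 4.42 FPKM in SHR and 2.89 FPKM in Dahl R.

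**Figure D4:**
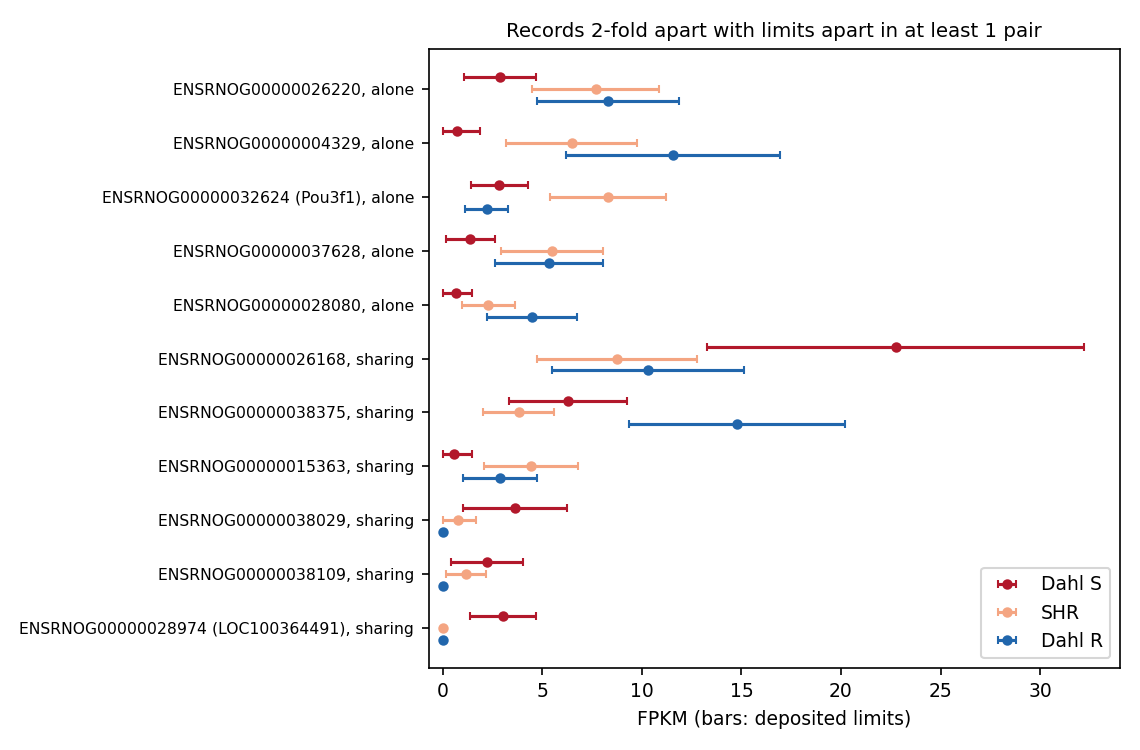
Levels (horizontal axis, FPKM) of the 11 records that were 2-fold apart with deposited limits apart in at least 1 pair, with Dahl S, SHR and Dahl R as separate points and bars for the deposited limits. In 4 of the 5 records alone at their locus Dahl S is lowest, and SHR is highest at Pou3f1.

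The most even strain difference among abundant records stood just below the 2-fold line. It was noticed after the values were seen. Of 67 records that averaged 50 FPKM or more, limits were apart in 5 for Dahl S over SHR and in 0 for each other pair. Over all measured records of the tables, limits were apart, at any size of difference, in 3.92% for Dahl S over SHR, 2.30% for Dahl S over Dahl R and 3.87% for SHR over Dahl R. Over the 848 measured pseudogene and retrotransposed records the shares were 1.42%, 0.943% and 0.472% for the same pairs. The 5 with limits apart were the ones that were retrotransposed and had a microRNA record (a short regulatory RNA) at the same locus and on the same strand. Their log2 ratios for Dahl S over SHR lay between 0.88 and 0.96, and the next highest of the 67 was 0.57. For Dahl S over Dahl R they lay between 0.49 and 0.55, and for SHR over Dahl R between -0.47 and -0.36.

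The highest of them, LOC100363177 on chromosome 5, had 265.8 FPKM in Dahl S, 143.8 FPKM in SHR and 188.7 FPKM in Dahl R. ENSRNOG00000031540 on chromosome 13 had 184.1 FPKM in Dahl S, 99.6 FPKM in SHR and 130.5 FPKM in Dahl R. The one with a RefSeq gene name was RGD1561055 on the X chromosome, which RefSeq lists as Ftl1l1 and whose promoter is printed above. It had 96.8 FPKM in Dahl S, 51.0 FPKM in SHR and 66.0 FPKM in Dahl R. The other 2 were ENSRNOG00000029082 and RGD1560687, with means of 99.7 and 82.4 FPKM. All 5 had the same order of strains, at 5 different chromosomes. All were measured in the same libraries, and whether they shared reads was not tested. The 5 records are therefore not separate pieces of evidence for a strain difference.

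Ferritin stores iron in a shell of light and heavy chains, and the light chain messages have processed copies in rodent genomes. The protein-coding record for ferritin light chain 1 (LOC100360087) had 402.0 FPKM in Dahl S, 223.9 FPKM in SHR and 295.9 FPKM in Dahl R. Its log2 ratios were 0.44 for Dahl S over Dahl R, 0.84 for Dahl S over SHR and -0.40 for SHR over Dahl R, beside the ranges given for the 5 records. The protein-coding record Ftl had 239.4 FPKM in Dahl S, 131.0 FPKM in SHR and 173.3 FPKM in Dahl R. The heavy chain Fth1 had 1782 FPKM in Dahl S, 1407 FPKM in SHR and 1728 FPKM in Dahl R, with a log2 ratio of 0.34 for Dahl S over SHR. The limits of each of these 3 protein-coding records overlapped in every pair. D3ZUZ5_RAT, a protein-coding ferritin record alone at its locus, had 18.2 FPKM in Dahl S, 9.36 FPKM in SHR and 12.5 FPKM in Dahl R. Its log2 ratio for Dahl S over SHR was 0.89, and that of D3ZFX2_RAT, also alone, was 1.26 at a mean of 1.25 FPKM. Both had overlapping limits, and neither shared its locus with a microRNA record. The remaining protein-coding ferritin records had means of 0.360 FPKM or less. Of the 5 retrotransposed records RGD1561055 was matched to this family, by a RefSeq synonym, and the tables do not name the source gene of the other 4. How many reads any of these records shared is not known.

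A sixth retrotransposed record of this kind, ENSRNOG00000026168 at chr8:125535680-125536042, had 22.7 FPKM in Dahl S, 8.76 FPKM in SHR and 10.3 FPKM in Dahl R. Its log2 ratios were 1.28 for Dahl S over SHR, with limits apart, and 1.07 for Dahl S over Dahl R, with overlapping limits. It was the most abundant of the 31 called records. The microRNA records themselves had levels in FPKM that need not reflect mature microRNA, since fragments of 200 to 300 bases were selected. At the locus of LOC100363177 the microRNA record had 307.9 FPKM in Dahl S, 178.8 FPKM in SHR and 238.1 FPKM in Dahl R, the strain order of its partner. At the locus of ENSRNOG00000029082 the order was the other way round: the microRNA record had 21.8 FPKM in Dahl S, 37.4 FPKM in SHR and 25.5 FPKM in Dahl R, a log2 ratio of -0.75 for Dahl S over SHR, where its partner had 0.96. At the loci of ENSRNOG00000031540, RGD1560687, RGD1561055 and ENSRNOG00000026168 the microRNA record was highest in Dahl S, at 338.0, 112.6, 4.88 and 2.38 FPKM. These records had 195.3, 66.1, 3.89 and 0 FPKM in SHR, and 260.3, 80.0, 3.79 and 0 FPKM in Dahl R. None of the 6 microRNA records had a name in the tables.

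**Figure D5:**
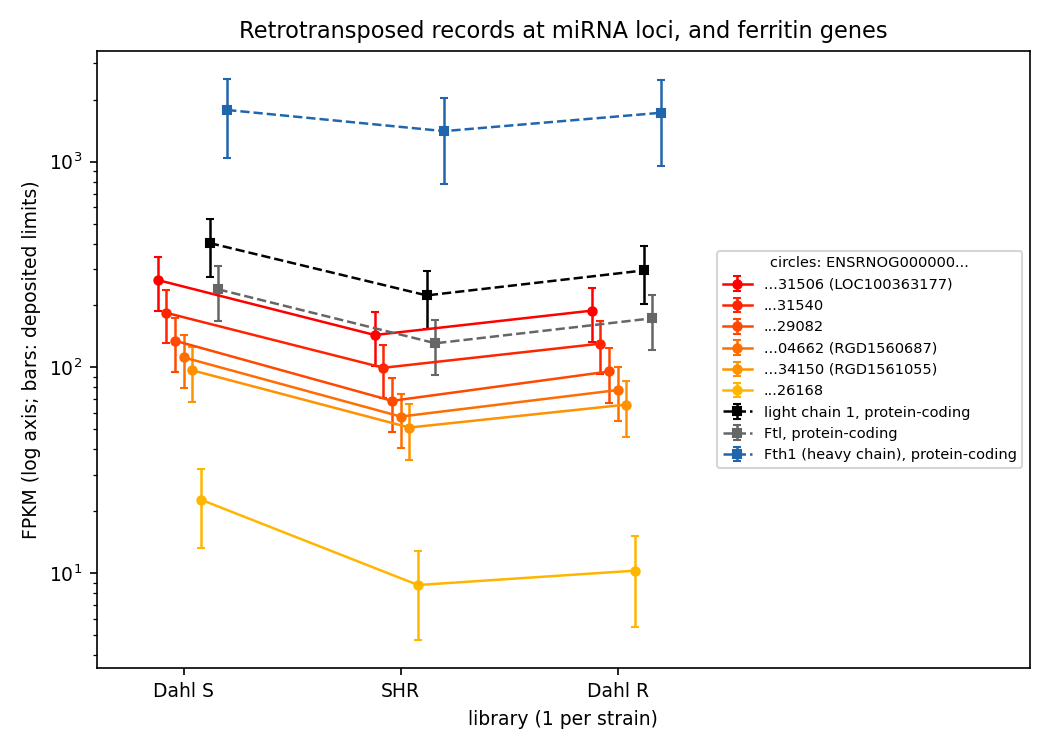
Levels (vertical axis, FPKM, log axis) of the 6 retrotransposed records with a microRNA record at their locus (circles) and of 3 protein-coding ferritin records (squares) in the Dahl S, SHR and Dahl R libraries, with bars for the deposited limits. Each line dips at SHR, and those of the 5 upper circle records run parallel to that of the light chain.

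Most shared loci involved a protein-coding record. Of the 381 sharing records, 292 (76.6%) had a protein-coding partner, 127 (33.3%) a long non-coding partner and 26 a microRNA partner. At 143 loci there was 1 such record and 1 protein-coding record, on opposite strands in 107 and on the same strand in 36. The record was measured at 84 of these loci. It was above the protein-coding record in all 3 libraries at 41 loci and below it in all 3 at 35. No minimum level was set for the protein-coding record, which tilts these counts towards the pseudogene or retrotransposed record. Over those of the 143 loci with any level above 0, measured or not, the record held a median of 32.3% of the summed level.

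The highest was ENSRNOG00000029947, a pseudogene record in the locus of Myo7b, a myosin of the brush border. It had 260.9 FPKM in Dahl S, 226.0 FPKM in SHR and 246.1 FPKM in Dahl R, against 8.30, 9.07 and 10.4 FPKM for Myo7b in the same order of libraries. In the locus of Neu3, a sialidase of the plasma membrane, the retrotransposed LOC681191 had 63.2 FPKM in Dahl S, 64.6 FPKM in SHR and 57.7 FPKM in Dahl R, while Neu3 had 2.14, 2.02 and 1.66 FPKM. The reverse held in the locus of Arhgap24, a regulator of Rac in podocytes, where the pseudogene record ENSRNOG00000021722 averaged 30.6 FPKM and Arhgap24 had 141.4 FPKM in Dahl S, 137.1 FPKM in SHR and 135.1 FPKM in Dahl R. ENSRNOG00000033172, with a mean of 229 FPKM, lay in a locus listed for 59 records, the widest sharing among the 6 highest.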

How the data were processed

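The authors deposited 1 table per library with FPKM and a lower and upper confidence limit in FPKM for each record, per the file headers. The submitters' processing notes name TopHat 1.3.1 and Cufflinks 1.0.3. The confidence level, genome build, annotation release, read totals, use of strand and treatment of reads with several matches are stated in no source used here, so depth is unknown and no count test was run. No column was left unmapped.

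Members came from the biotype column, and alone or sharing from the locus column. They, and the gene lists, were chosen with earlier results of these data known. Levels are FPKM as deposited. Ratios are log2((FPKM + 1)/(FPKM + 1)). A record was measured at a mean of at least 1 FPKM and called at a log2 ratio of at least 1 in size. With 1 library per strain there was no test. The smaller of 2 FPKM values had to have its upper limit below the other's lower limit for limits to be apart. 1 upper limit in the tables, of no member, was not a number.

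Named records were the 10 highest of each biotype among alone records, the 6 highest sharing ones, and, with limits apart, up to 6 (alone) or 3 (sharing) records per direction and pair, where sharing records had loci of at least 300 bases. From the 20 highest alone records those with a gene name or the largest difference are given. The RefSeq-matched records and the ferritin records were chosen after their values were seen. RefSeq (GRCr8) served for names, neighbours and promoters: a neighbourhood was the same where at least 3 of the 10 nearest named protein-coding records lay within 2 Mb of the RefSeq gene. Calculations used Python 3.11.15 with pandas 2.3.3 and numpy 2.4.6, and figures matplotlib 3.10.9. Calling was tested on simulated data without noise, from records of 20 FPKM or more, which does not bear on calls at lower levels. Alternatives were other pseudocounts, minimum levels, scalings, locus lengths and limits.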

Additional observations from a re-analysis of the deposited data

How the results depend on the processing

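No paired analysis was possible because each strain has 1 library. Counts of records called follow for Dahl S over Dahl R, Dahl S over SHR and SHR over Dahl R in that order, first alone and then sharing their locus. They were 8, 10 and 5, and 10, 6 and 3 as reported. The share over all measured records was computed for the reported setting and with limits apart. It was not computed for the other alternatives, so whether their counts lie below a background is not known. The balance of higher and lower calls among alone records turned with a pseudocount of 0.1: 19 and 11 for Dahl S over Dahl R, 20 and 12 for Dahl S over SHR, and 9 and 10 for SHR over Dahl R, against 3 and 5, 4 and 6, and 4 and 1 as reported. With a pseudocount of 0.1 they were 30, 32 and 19, and 21, 15 and 9. With a pseudocount of 5 they were 1, 0 and 0, and 0, 1 and 1. With no minimum level they were 20, 17 and 10, and 16, 10 and 8. At a minimum mean of 0.5 FPKM 15 alone records were called for Dahl S over Dahl R and 7 sharing records for SHR over Dahl R. At a minimum mean of 5 FPKM the counts were 3, 2 and 0, and 2, 1 and 1, of 400 and 111 measured records. With limits apart also required they were 3, 3 and 1, and 4, 3 and 2. Summing all records of a locus, an alternative chosen after seeing the data, gave 7, 11 and 8 called shared loci of 309 measured. Scaling by median ratio or upper quartile moved the median of all records by at most 0.05 on the log2 scale, and with it, or without loci under 300 bases, no count moved by more than 1.5 times. Overlap of coordinates changed the class of 0 records. Of 16 named ratios 13 fell below the 2-fold size with a pseudocount of 5 and 0 in the other settings, and none changed sign. No pseudocount can change the sign of a ratio, and a smaller one makes each ratio larger in size. Minimum levels, locus lengths, limits and overlap leave a ratio as it is. Apart from the larger pseudocount, only the scalings could have weakened a ratio, so the unchanged signs do not show that the ratios are stable. No count with 1 library per strain can show variation between animals, and FPKM without read totals gives no counting error beyond the deposited limits.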
